A study of Mus musculus with 6 samples.

Results

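Ifitm1, Ifitm2, Ifitm3 and Ifitm6, which encode interferon-induced transmembrane (IFITM) proteins, and Bst2, which encodes tetherin, were measured in 6 bulk RNA-seq libraries of mouse leukemia cells. The 5 genes were chosen by name, as restriction factors of cellular membranes, from the 53618 named rows of the gene table. Of the 5, 2 (Ifitm2 and Bst2) passed the filter on low values and were tested among 12298 genes, and the other 3 had no more than 3 reads in any library. The libraries came from GFP+Lin-c-Kit+ splenocytes, a sort for leukemia cells with an immature surface phenotype, taken from 6 recipient mice. All cells carried a floxed Usp18 allele beside an intact one, a Cre recombinase activated by tamoxifen and the AE9a oncogene, a truncated AML1-ETO fusion that drives acute myeloid leukemia. The 3 mice labelled oil received the vehicle (Usp18+/f) and the 3 labelled tamoxifen received the drug that activates this Cre (Usp18+/Δ), and cells were sorted 3 days after the first injection. Per the study's methods, recipients were 8 to 12 weeks old and received 3 injections. Cre is expressed in all tissues of this strain, the oncogene was introduced with a retrovirus, and the sorted cells were grown in a transplanted host. Tamoxifen itself, Cre activity and the loss of the Usp18 allele cannot be told apart in this design. Nothing in the labels states litter or sorting day, so p-values measure the spread between these mice.

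IFITM proteins sit in the plasma membrane and in endosomal membranes, where they hinder the fusion of enveloped viruses with the host cell. Tetherin acts at the other end of the viral cycle, with a transmembrane segment at one end and a lipid anchor at the other that hold budding virions on the cell surface. Both kinds of protein are products of interferon-stimulated genes (ISGs): type I interferon activates a complex that contains STAT2 and IRF9 and binds interferon-stimulated response elements (ISREs) in promoters. USP18 restrains this pathway at the interferon receptor, and the comparison asks how expression of such genes changes when one Usp18 allele is targeted. In naive mice tetherin also serves as a surface marker of plasmacytoid dendritic cells, whereas interferon brings it onto many cell types.

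The 4 Ifitm genes lie together on chromosome 7, within chr7:140954837-141017924 of GRCm38, a span of 63088 bases, and Bst2 lies alone on chromosome 8 at chr8:71534255-71537456 on the minus strand. Their promoters, from 250 bases before to 50 after the start site in RefSeq (GRCm38.p6), were searched on both strands for a core of the ISRE, 2 copies of GAAA with any 2 bases between them, called the GAAA pair below. All 5 genes had a promoter in that table. Bst2, Ifitm2 and Ifitm3 held the GAAA pair, and Ifitm1 and Ifitm6 did not hold it in this window. The pair is present in 1131 of 32851 promoters of this length (3.44%). The upstream sequences of both genes that passed the filter are shown 5′ to 3′, with the matches in capitals. The third sequence is the stretch of 30 bases around the matches of Ifitm3, shown because this gene holds the pair and yet had almost no reads.
Bst2, chr8:71537473-71537722, minus strand: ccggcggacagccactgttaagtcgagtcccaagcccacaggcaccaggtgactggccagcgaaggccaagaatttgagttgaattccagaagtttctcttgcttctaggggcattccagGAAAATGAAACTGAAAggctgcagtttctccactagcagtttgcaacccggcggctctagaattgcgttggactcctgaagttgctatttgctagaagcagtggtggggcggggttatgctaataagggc
Ifitm2, chr7:140955988-140956211, minus strand: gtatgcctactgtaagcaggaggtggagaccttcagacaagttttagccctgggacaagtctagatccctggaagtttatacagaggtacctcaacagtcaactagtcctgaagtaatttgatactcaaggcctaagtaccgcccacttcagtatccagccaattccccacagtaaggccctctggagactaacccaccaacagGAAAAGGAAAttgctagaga
Ifitm3, chr7:141010714-141010743, minus strand: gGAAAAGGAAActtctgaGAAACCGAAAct
In Bst2 the capitals are GAAAATGAAA, at -130 to -121 from the RefSeq start site, and GAAACTGAAA, at -124 to -115, which overlap each other. In Ifitm2 a single match, GAAAAGGAAA, stood at -46 to -37. In Ifitm3 the same GAAAAGGAAA stood at 3 to 12 after the start site and GAAACCGAAA at 20 to 29. A match is a description of the sequence and not a bound site.

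The deposited values are reads divided by 1 size factor per library and are called normalized counts below. Reads of named genes ranged from 19164795 to 23770537 per library. For Usp18, the targeted gene, oil 1, 2 and 3 had 217, 214 and 176 normalized counts and tamoxifen 1, 2 and 3 had 477, 329 and 284, higher where a lower level would follow from the label. The count covers the whole gene, which keeps an intact allele and is itself an ISG, so it does not settle the genotype, and groups are named by label only. Tamoxifen 1 stood apart from the other 5 libraries: the mitochondrial share of reads was 0.00923% in it against 1.01% to 1.56%, and its difference from the median of the other 5 rose with the GC content of a gene. Over 10797 nuclear protein-coding genes that difference had a Spearman rho of 0.70 with GC content, a description across genes of 1 library. Folds of Bst2 and Ifitm2 are therefore given with and without it. No gene of the 12298 passed an adjusted p of 0.05 (limma, Benjamini-Hochberg), while the unadjusted threshold of 0.05 was passed by 397 higher genes (3.23%) and 153 lower ones (1.24%). On recovered reads, edgeR called no gene of 12340 (485 higher and 109 lower without adjustment) and DESeq2 called 71 of 15314 (0.464%). Among markers of the sorted cell, Kit had 4687 to 10976 normalized counts and Runx1t1, whose human homologue gives the fusion its ETO part, 1532 to 2097. Ptprc (CD45), expressed by nearly all leukocytes, had only 0.898 to 8.08.

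Bst2 was the most abundant of the 5 genes, and its values in the libraries labelled tamoxifen lay above those labelled oil by a margin that ran from wide to almost none. The normalized counts were 1573, 1603 and 1946 in oil 1, 2 and 3, and 5255, 2357 and 1954 in tamoxifen 1, 2 and 3 (1662 to 4112 reads per library). Tamoxifen 1 was far above all others and tamoxifen 2 moderately so, whereas tamoxifen 3 and oil 3 were nearly equal, with a gap of 8.07 normalized counts. The groups did not overlap, which was also the case for 7.86% of all tested genes in this direction and for 9.69% in the other. Mean levels of Bst2 were 1707 ± 207 in oil and 3189 ± 1801 in tamoxifen (SD, n = 3 each), a ratio of 1.87, and the SD of the tamoxifen group exceeded the difference. An exact permutation test of the 3 against 3 values gave p = 0.10 (two-sided), the smallest this design allows.

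On the log2(normalized count + 1) scale, Bst2 was higher by 0.77 (SE 0.37, 95% interval -0.12 to 1.65), with an unadjusted p of 0.0791 and an adjusted p of 0.666 by limma. Of all genes tested, 527 (4.29%) had a larger log2 fold change, and without tamoxifen 1 the number was 1274 (10.4%). Without tamoxifen 1, the mean of tamoxifen 2 and 3 was 2156 ± 285 (SD, n = 2), 1.26 times the oil mean. The log2 fold change was then 0.34 (SE 0.12, 95% interval 0.074 to 0.60), with an unadjusted p of 0.0174 and an adjusted p of 0.294 by limma. Without tamoxifen 1, 6.04% of genes were higher and 6.06% were lower without adjustment (p under 0.05), and 0.333% passed the adjusted threshold. On recovered reads of all 6 libraries, DESeq2 gave a log2 fold change of 0.90 with an unadjusted p of 0.0254 and an adjusted p of 0.732. A difference in Bst2 thus did not pass the adjusted threshold by any of these tests, and its interval without tamoxifen 1 ran from near no change to about 0.60.

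**Figure D1:**
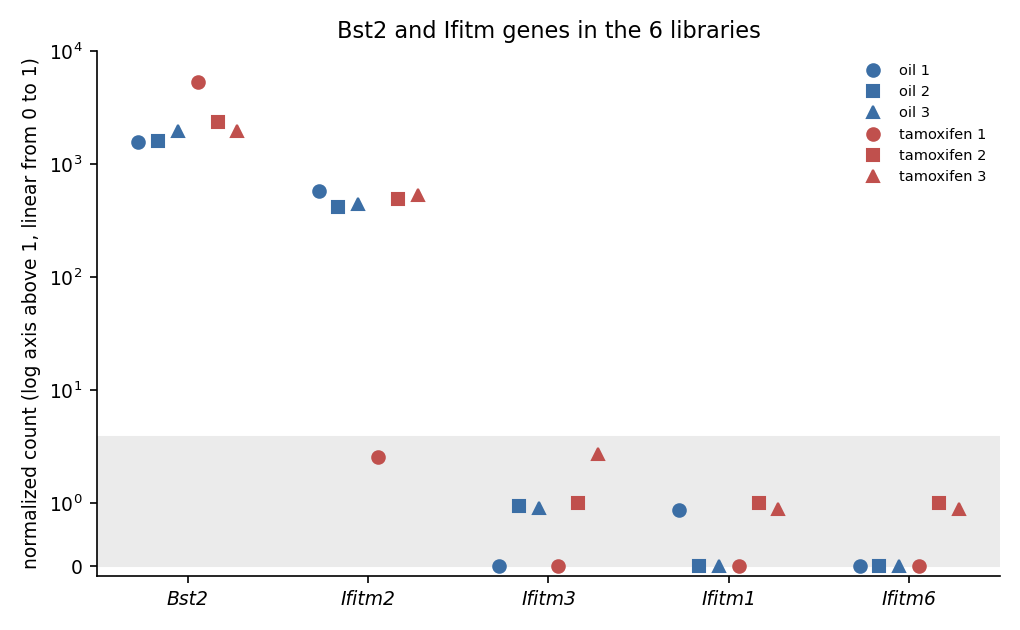
Normalized counts of the 5 genes in each library (log axis above 1 and linear below), with 1 point for each library labelled oil (blue) or tamoxifen (red) and a grey band up to the value of 3 reads in the shallowest library. Bst2 is highest in tamoxifen 1 at 5255, Ifitm2 falls to 2.56 in tamoxifen 1 alone, and Ifitm1, Ifitm3 and Ifitm6 stay within the band in all 6 libraries.

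In tamoxifen 1, Bst2 was 2.70 times the median of the other 5 libraries. Genes of similar GC content also tended to be high there. The longest annotated transcript of Bst2 has a GC content of 55.3%. The 2045 nuclear coding genes with 55% to 60% GC had a median difference in tamoxifen 1 of 0.79 on the log2 scale (5th to 95th percentile -0.49 to 1.56), and that of Bst2 was 1.43, exceeded by 166 of them. After a loess correction for GC content, the log2 values of Bst2 were 10.66, 10.72 and 10.98 in oil and 11.89, 11.23 and 10.94 in tamoxifen. Tamoxifen 3 then fell below oil 3, so the groups overlapped, and the log2 fold change was 0.57 (SE 0.25, adjusted p = 0.680 by limma).

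The protein-coding neighbours of Bst2 gave a further reference for tamoxifen 1. Plvap, an endothelial membrane protein gene, had 1239, 1095 and 1020 normalized counts in oil and 2804, 1052 and 1215 in tamoxifen. Mvb12a, which encodes a subunit of the ESCRT-I complex of membrane budding, had 1973, 1923 and 2068 in oil and 4466, 1951 and 1641 in tamoxifen. Tmem221 had 305, 233 and 262 in oil and 497, 237 and 296 in tamoxifen. All 3 neighbours were highest in tamoxifen 1, like Bst2, and in each of the 3 the ranges of the other tamoxifen libraries reached into or below the oil range. The ratio of Bst2 to Mvb12a within a library was 0.797, 0.834 and 0.941 in oil and 1.18, 1.21 and 1.19 in tamoxifen. These ratios did not overlap between the groups, and tamoxifen 1 did not stand apart in them. The ratios of Bst2 to Plvap (1.27 to 1.91 in oil, 1.61 to 2.24 in tamoxifen) and to Tmem221 (5.15 to 7.43 and 6.61 to 10.6) overlapped. None of these ratios was tested, and Mvb12a was picked out after its values were seen.

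Of the clustered Ifitm genes, Ifitm2 alone had a sizeable level, and it was nearly absent from 1 library. Its normalized counts were 578, 413 and 447 in oil 1, 2 and 3, and 2.56, 491 and 530 in tamoxifen 1, 2 and 3. Tamoxifen 2 and 3 lay inside the oil range, and tamoxifen 1 was apart from all. In reads, Ifitm2 had 643, 428 and 481 in oil and 2, 486 and 583 in tamoxifen. A level equal to the median of the other 5 libraries would have given 384 reads in tamoxifen 1. The 2 reads found there have an exact Poisson interval of 0.242 to 7.22 reads, or 0.521% of that median (0.0630% to 1.88%), which covers counting error only. The cause of the low value was not tested.

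A mean over the tamoxifen libraries described none of them. It was 341 ± 294 (SD, n = 3) against 479 ± 87.0 (SD, n = 3) in oil. The log2 fold change over all 6 libraries was -2.28 (SE 1.87, 95% interval -6.76 to 2.20, adjusted p = 0.666 by limma), and an exact permutation test gave p = 0.80 (two-sided). On recovered reads of the same 6 libraries it was -0.49 by DESeq2 (SE 1.45, adjusted p = 0.92) and -0.46 by edgeR (adjusted p = 0.846). Without tamoxifen 1 the mean of tamoxifen 2 and 3 was 511 ± 27.7 (SD, n = 2) and the log2 fold change turned to 0.11 (SE 0.15, 95% interval -0.22 to 0.44, adjusted p = 0.815 by limma). A difference in Ifitm2 between the labels was therefore not resolved in either direction.

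Values of other genes in tamoxifen 1 were set beside that of Ifitm2 by GC content and length. Its transcript of 655 bases has a GC content of 54.4%, in a range (50% to 55%, 2832 genes) where the median difference of tamoxifen 1 from the other 5 libraries was 0.37 and the 5th percentile -1.04. Ifitm2 differed by -7.11, the lowest of the 10797 nuclear protein-coding genes tested, and the next lowest, Zfp85, was at -6.56 with 0 reads in that library. On this scale a gene cannot fall by more than its own level, so the order at this end also follows the level in the other libraries. The 457 nuclear coding genes with transcripts under 1000 bases had a 5th percentile of -2.88, lower than that of the longer transcripts (-2.17 to -2.07). Of all 12298 genes, 6 were lower, of which 5 were mitochondrial genes and 1 was Gm10925. After the GC correction Ifitm2 stood at -7.53. Among the 9090 genes with at least 100 normalized counts in each of the other 5 libraries, 10 were under 1% of their median in tamoxifen 1, and 6 of those 10 were mitochondrial.

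**Figure D2:**
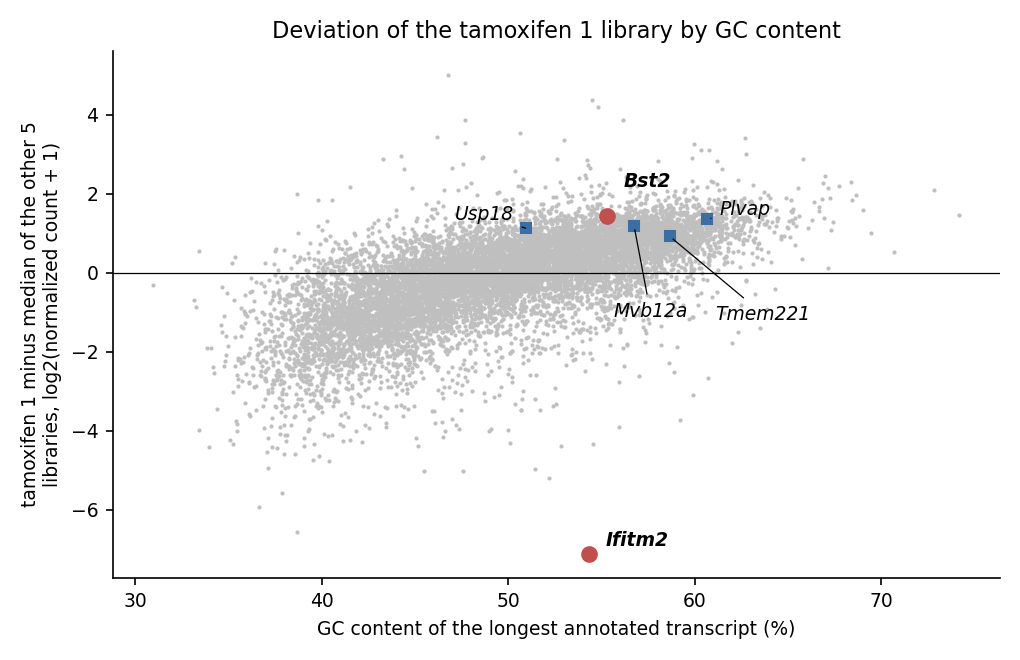
Difference of tamoxifen 1 from the median of the other 5 libraries, on the log2(normalized count + 1) scale, against GC content of the longest annotated transcript in percent, for nuclear protein-coding genes (grey), Bst2 and Ifitm2 (red) and Usp18 and the neighbours of Bst2 (blue). Bst2 lies near the upper edge of genes of like GC content at 1.43, and Ifitm2 is the lowest point at -7.11.

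Sequence shared with other genes was examined for Ifitm2, because reads that align to several places can be lost in counting. Of the 625 stretches of 31 bases in its transcript, 347 (55.5%) also occur in the transcripts of other annotated genes. The genes involved were Gm45717, a readthrough gene annotated over the Ifitm2 locus (238 stretches), 8 processed pseudogenes, Ifitm3 (39), Ifitm7 (14) and Ifitm1 (10). At 150 bases, 119 of 506 stretches (23.5%) were shared, with Gm45717. Gm45717 had 0 reads in all 6 libraries. The 6 of the pseudogenes that were in the table had 4 reads in all, and no single one had more than 2 in any library. The other 2 pseudogenes were not analysed here. Sequence was not shared at either length by Ifitm6 or Bst2, and at 31 bases 20.5% of the stretches of Ifitm3 and 11.6% of those of Ifitm1 were shared. The level of Ifitm2 is thus uncertain by whatever share of its reads the counting discarded, an amount that was not measured here.

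Ifitm1, Ifitm3 and Ifitm6 were at the detection floor in every library. Ifitm1, a family member of the plasma membrane, had 1, 0 and 0 reads in oil and 0, 1 and 1 in tamoxifen. Ifitm3, the member best known for restricting viral entry through endosomes, had 0, 1 and 1 reads in oil and 0, 1 and 3 in tamoxifen. Ifitm6 had 0, 0 and 0 reads in oil and 0, 1 and 1 in tamoxifen. Together the 3 genes took 11 of 133453534 reads, 3 in oil and 8 in tamoxifen, and none was in tamoxifen 1. Pooled over a group, the exact Poisson upper limits for oil and tamoxifen were 0.0799 and 0.113 CPM (reads per 1000000 reads) for Ifitm1, 0.104 and 0.161 for Ifitm3 and 0.0529 and 0.113 for Ifitm6. These limits cover counting error only. The floor of 3 reads used for a single library corresponds to 0.126 to 0.157 CPM. No fold change was given for genes at this floor and no difference between the labels was detectable at this depth.

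In counted reads, the contrast within the Ifitm cluster was thus between 1 gene with a sizeable level and 3 genes at the floor. Ptprc, expressed by nearly all leukocytes, also had very few reads here. A count at the floor is therefore not read as a silent gene, and the cause of these low counts was not tested. In the 5 libraries other than tamoxifen 1, Ifitm2 had 2621 reads and Ifitm3 had 6. Both hold the GAAA pair near their start sites, as printed above. Per kilobase of annotated exon, Ifitm2 had 731 ± 133 normalized counts in oil (SD, n = 3), above 89.7% of the 15355 protein-coding genes with any signal. Bst2 had 1891 ± 230 per kilobase in oil, above 96.7% of those genes. Within each oil library the per-kilobase level of Bst2 was 1.98 to 3.16 times that of Ifitm2. By counted reads, the order of levels in oil was thus Bst2, Ifitm2 and then Ifitm1, Ifitm3 and Ifitm6. The levels of the last 3 cannot be ordered among themselves. Reads of Ifitm2 discarded in counting were not measured, so its place below Bst2 holds for counted reads only.

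Other genes of the family and of the locus were also mostly low. Ifitm5, known for its role in bone, had 11 reads in all 6 libraries, Ifitm7 had 0, and Ifitm10, a less studied relative, had 155, 128 and 125 normalized counts in oil and 176, 126 and 105 in tamoxifen. Beside Ifitm2, Ifitm10 was the only Ifitm gene of the 7 examined that was tested, and it was not low in tamoxifen 1. Its log2 fold change was -0.03 (adjusted p = 0.958 by limma). Of the wider CD225 family outside the 5 genes, 10 genes were in the table and 2 were tested, of which Tmem91 was higher at an unadjusted p of 0.0492 (3.23% of all genes were higher), with a log2 fold change of 1.08 (adjusted p = 0.666 by limma). Without tamoxifen 1 it was at 0.80, with an unadjusted p of 0.126 (limma). On the side of the cluster with lower coordinates, Nlrp6, an inflammasome sensor gene, had 3.59, 0 and 2.79 normalized counts in oil. It had 29.4, 12.1 and 10 in tamoxifen. Pgghg, a collagen glucosidase gene, had 297, 338 and 294 in oil and 557, 307 and 265 in tamoxifen. On the other side, B4galnt4 had 2.69, 3.86 and 0 normalized counts in oil and 12.8, 5.05 and 5.46 in tamoxifen. B4galnt4 was too low to be tested, and Gm17387, also on that side, had 0 reads. Nlrp6, Pgghg and B4galnt4 were highest in tamoxifen 1, unlike Ifitm2.

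Interferon-stimulated genes other than the 5 gave the setting in which Bst2 and Ifitm2 can be read. Of 51 typical ISGs in the table, 45 were tested. Of the 45, 23 were higher and 0 were lower at an unadjusted p under 0.05, against 3.23% and 1.24% of all genes, and 27 had groups that did not overlap, all higher (7.86% of all genes higher and 9.69% lower). By limma none passed the adjusted threshold over all genes, and by DESeq2 12 passed it, all higher (0.464% of all genes). The median log2 fold change of the list was 0.63, against -0.02 for all 12298 genes, and without tamoxifen 1 it was 0.52, with 34 higher at the unadjusted threshold (6.04% of all genes) and 9 past the adjusted one (0.333%). The 0.77 of Bst2 lay near the middle of this list, with 20 of 45 genes above it. Without tamoxifen 1 its 0.34 was lower in the order, with 30 of 45 above it.

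The leading genes of the list show the difference in size from Bst2. Ifit1, which encodes a sensor of foreign RNA ends, had 32.3, 39.6 and 25.1 normalized counts in oil and 298, 226 and 236 in tamoxifen, a log2 fold change of 2.95 (adjusted p = 0.0950 by limma and 2.15e-17 by DESeq2). Irf7, the transcription factor that amplifies interferon production, had 255, 350 and 245 in oil and 1394, 890 and 824 in tamoxifen, a log2 fold change of 1.84. Mx1, a GTPase that traps viral ribonucleoproteins, had 5.39, 9.65 and 2.79 in oil and 44.7, 49.5 and 50.02 in tamoxifen. All 3 were several times above oil in each tamoxifen library, without overlap. Relative to the oil mean, Bst2 was at 3.08, 1.38 and 1.14 in tamoxifen 1, 2 and 3, where Ifit1 was at 9.21, 7.002 and 7.32 and Irf7 at 4.92, 3.14 and 2.91. Ifitm2, by the same measure, was at 0.00534, 1.02 and 1.11, below all 3 in each library.

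**Figure D3:**
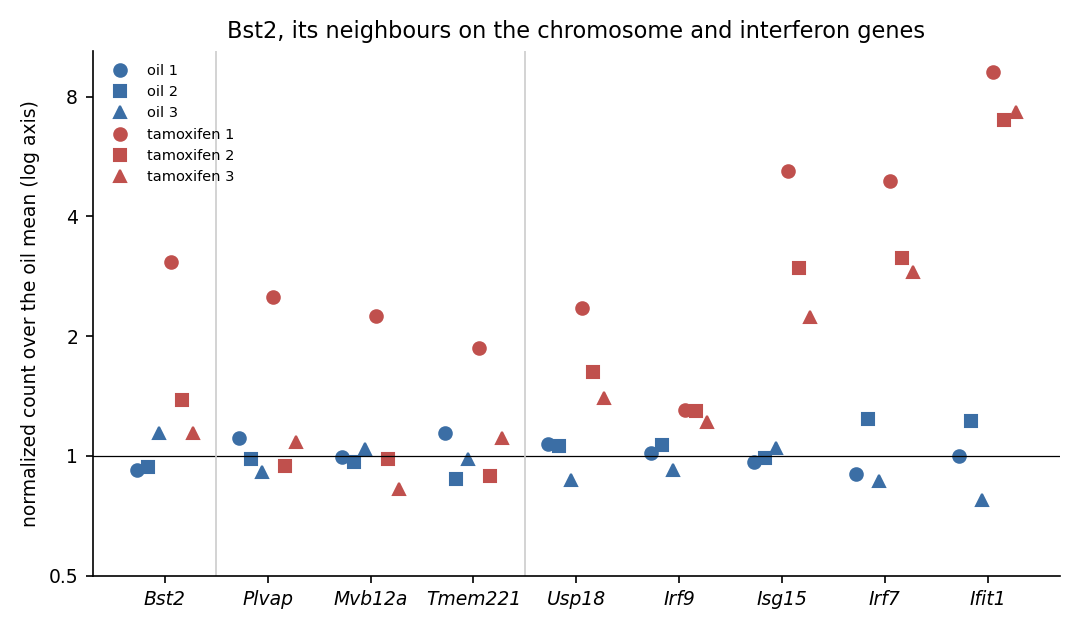
Normalized count over the oil mean (log axis) for Bst2, its genomic neighbours and interferon-pathway genes, with 1 point for each library labelled oil (blue) or tamoxifen (red). Bst2 runs from 3.08 in tamoxifen 1 to 1.14 in tamoxifen 3, its neighbours fall to about the oil level outside tamoxifen 1, and Ifit1 stays at or above 7.002 in all 3.

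Upstream of these genes, 4 of the 10 tested genes of the type I interferon signal were higher at an unadjusted p under 0.05 and 0 were lower, against 3.23% and 1.24% of all genes, with a list median of 0.34 (0.22 without tamoxifen 1). The 4 were Isg15 (log2 fold change 1.70), the ubiquitin-like modifier removed by USP18, Usp18 itself (0.81), Socs1 (0.99), a feedback inhibitor of JAK kinases, and Irf9 (0.35), the DNA-binding subunit of the ISRE-binding complex. Their adjusted p ran from 0.580 to 0.666 (limma), and without tamoxifen 1 Isg15 (0.00397) and Socs1 (0.0426, log2 fold change 0.61) passed (0.333% of all genes), with 5 of the 10 higher at the unadjusted threshold (6.04%). With all 6 libraries DESeq2 called 1 of the 4, Isg15 (adjusted p = 0.000421; 0.464% of all genes). Irf9 had 1578, 1652 and 1434 normalized counts in oil and 2023, 2021 and 1891 in tamoxifen, with all 3 tamoxifen libraries above oil and close together. Isg15, Usp18 and Irf9 are also on the list of typical ISGs, so their calls were counted in both lists. Of the 38 typical ISGs with a promoter in the RefSeq table, 17 (44.7%) held the GAAA pair. Like Ifitm3, a few listed ISGs had no more than 3 reads in any library: Ifit3b, Zbp1, Ifi44 and Ifi44l, named after their values were seen, of which Ifit3b holds the pair.

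Other antiviral proteins of membranes were examined next. Of 14 listed genes matched in the table, 11 were tested, of which 2 were higher and 1 was lower at an unadjusted p under 0.05 (against 3.23% and 1.24% of all genes), none passed the adjusted threshold by limma and 1, Rsad2, passed it by DESeq2 (0.464% of all genes). Without tamoxifen 1, 3 were higher and 2 lower at the unadjusted threshold (6.04% and 6.06%) and none passed the adjusted one (0.333%). A pair of listed MARCH ligase genes, whose names the table holds as dates, were not analysed here. The list median was 0.03 (0.02 without tamoxifen 1). Rsad2 is also on the list of typical ISGs, so its calls were counted in both lists. Rsad2, which encodes viperin, an antiviral enzyme of the endoplasmic reticulum and lipid droplets, had 1.80, 2.89 and 1.86 normalized counts in oil and 29.4, 24.2 and 15.5 in tamoxifen, a log2 fold change of 2.89 (adjusted p = 0.426 by limma and 0.00533 by DESeq2). Gbp2, an interferon-induced GTPase gene, had 137, 143 and 105 in oil and 313, 190 and 236 in tamoxifen, a log2 fold change of 0.92. Serinc5, which encodes a membrane protein that lowers the infectivity of retroviral particles, had 759, 750 and 744 in oil and 424, 599 and 459 in tamoxifen, a log2 fold change of -0.62. Gbp2 and Serinc5 each had an adjusted p of 0.666 (limma), and of the 11 genes 3 were higher and 2 lower without overlap, against 7.86% and 9.69% of all genes. Plscr1, a phospholipid scramblase gene, had 2869, 2725 and 2850 in oil and 1435, 2444 and 2336 in tamoxifen, a log2 fold change of -0.48 (adjusted p = 0.666 by limma), or -0.24 without tamoxifen 1.

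Genes whose products are known to modify, traffic or bind IFITM proteins or tetherin gave no call with all 6 libraries. Of 23 listed, 19 were tested, of which 0 were higher or lower at an unadjusted p under 0.05 by limma (3.23% and 1.24% of all genes) and 0 passed the adjusted threshold by limma or DESeq2. The list median was -0.03 (-0.02 without tamoxifen 1), and 2 genes, Bcap31 and Nedd4, were lower without overlap (9.69% of all genes). Without tamoxifen 1, Bcap31 alone was lower at an unadjusted p of 0.0481 (log2 fold change -0.19, adjusted p = 0.410 by limma; 6.06% of all genes were lower). The smallest unadjusted p was that of Bcap31, a receptor for export from the endoplasmic reticulum, at 0.155, with 3403, 3354 and 3461 normalized counts in oil and 2860, 3214 and 2785 in tamoxifen. Zdhhc20, one of the palmitoyltransferases that acylate IFITM proteins, had 1317, 973 and 899 in oil and 358, 948 and 980 in tamoxifen. Nedd4, a ubiquitin ligase of IFITM3, had 20204, 19802 and 18742 in oil and 10617, 18700 and 18364 in tamoxifen. In Zdhhc20 and Nedd4, tamoxifen 1 was lowest by far, whereas tamoxifen 2 and 3 were within or just under the oil range.

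The libraries were also read for cell types in which tetherin or IFITM proteins are abundant, since in bulk samples fewer cells of a type and less RNA per cell cannot be told apart. Of 11 plasmacytoid dendritic cell markers, 4 were tested and 0 changed at an unadjusted p under 0.05 (limma; 3.23% of all genes were higher and 1.24% lower). Without tamoxifen 1, Ly6d was higher by 0.30 at an unadjusted p of 0.0177 (adjusted p = 0.295 by limma; 6.04% of all genes were higher). The summed level of all 11 was 6033 to 7404 in oil and 2954, 7946 and 8048 in tamoxifen. That sum was carried by Ly6d, Tcf4 and Runx2, genes that other progenitors also express, and Klk1 and Cd300c were at 0. Of 14 monocyte and macrophage markers, 8 were tested, 0 passed the adjusted threshold by limma or DESeq2, and 5 were higher at an unadjusted p under 0.05 (3.23% of all genes), among them Csf1r, the receptor for the macrophage growth factor, with 22.5, 10.6 and 14.9 normalized counts in oil and 33.2, 44.5 and 31.8 in tamoxifen. The summed level of that list was 504.2 to 627 in oil and 359, 735 and 758 in tamoxifen. Markers of neutrophils summed to 32.5 to 49.4 in oil and 70.9 to 115 in tamoxifen, those of B cells to 13.5 to 27.8 and 50.02 to 57.5, those of T cells to 0.898 to 2.89 and 1.82 to 8.08, and those of NK cells to 0 in all 6. Erythroid genes summed to 55111 to 74708 in oil and 59507 to 86467 in tamoxifen. The part of these cells in the Bst2 values was not tested.

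By shape over the 6 libraries, measured as the root mean square (RMS) difference of centred log2 values, the 3 genes most like Bst2 were Tomm40, a subunit of the mitochondrial import channel (0.0762), Nolc1, a nucleolar phosphoprotein gene (0.0851), and Fasn, fatty acid synthase (0.0918). The RMS of Bst2 about its own mean was 0.590. Tomm40 had 1660, 1720 and 2150 normalized counts in oil and 5331, 2203 and 1999 in tamoxifen, and so shared both the high tamoxifen 1 and the rise of oil 3 over the other oil libraries. None of these 3 is a typical ISG on the list used here. For Ifitm2 the nearest were Zfp85, a zinc finger gene (0.244), mt-Nd2, a mitochondrial complex I gene (0.256), and Gm17066 (0.267), against an own RMS of 2.65. All 3 had a single low library, tamoxifen 1, with 0 reads for Zfp85 and Gm17066 and 75 for mt-Nd2. Likeness here is a description of 6 libraries.

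**Figure D4:**
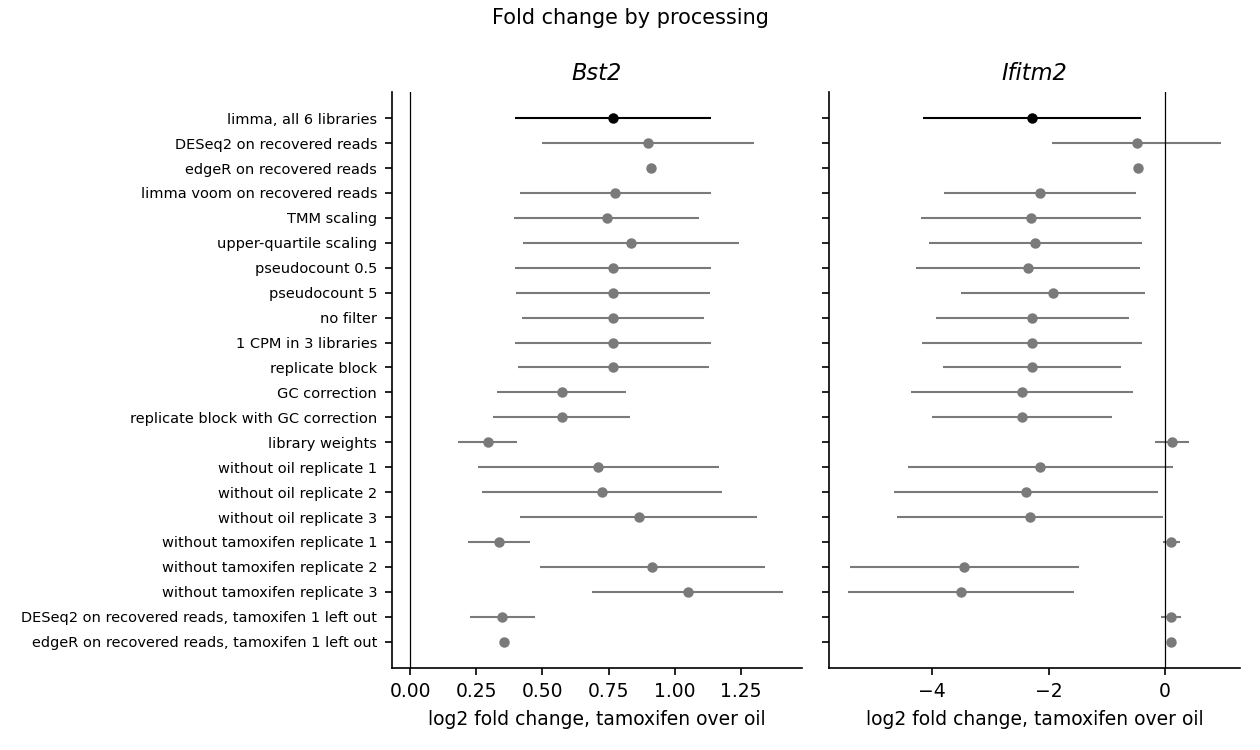
Log2 fold change (labelled tamoxifen over oil) of Bst2 and Ifitm2 under each way of processing, with points for estimates, bars of 1 SE where the fit gives one (edgeR does not) and a line at no change. All estimates of Bst2 lie above 0, from 0.29 to 1.05, and those of Ifitm2 lie between -3.51 and 0.11, above 0 only where tamoxifen 1 was left out or down-weighted.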

How the data were processed

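The authors sequenced RNA of sorted cells, and the submitters' processing notes name STAR, DESeq2 and mm10; strand setting and annotation are not given in the sources used here. The deposited values, called counts by the authors, are a normalized signal: reads divided by 1 size factor per library. All values were whole multiples of the value of 1 read (0.898 to 1.28, tolerance 0.01 reads), which recovered 19164795 to 23770537 reads per library. Of 55450 rows, 1832 without a name (0.0400% to 0.0614% of reads) were left out. GENCODE vM21 (GRCm38) gave coordinates and GC content. The test was limma 3.58.1 (R 4.3.3; lmFit, eBayes with trend, two-sided, Benjamini-Hochberg, threshold 0.05) on log2(value + 1) of genes with at least 10 in at least 3 libraries, a scale that understates changes of low genes. edgeR 4.0.16, DESeq2 1.42.0, voom, other scalings, pseudocounts and filters, a replicate block, a GC correction (loess, span 0.3), library weights and leaving out each library were alternatives. The fits were tested on simulated data, and no result of that test is given here.

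The members and lists were chosen with earlier results of these data known. Named genes were the 5 members, Usp18, up to 4 genes per list with the smallest p, family genes, neighbours, markers beside a result and 3 genes most like each tested member. The result of 1 promoter motif is not reported here.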

Additional observations from a re-analysis of the deposited data

How the results depend on the processing

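Over 21 alternatives, the log2 fold change of Bst2 stayed above 0 (0.29 to 1.05, adjusted p 0.139 to 0.861) and that of Ifitm2 was below 0 in 17 and above 0 in 4 (-3.51 to 0.11, adjusted p 0.419 to 0.964), and none passed the threshold. Ifitm2 turned to 0.11 with library weights, to 0.11 without tamoxifen 1 and, in fits chosen after seeing the data, to 0.10 by DESeq2 and 0.11 by edgeR with tamoxifen 1 left out. Library weights gave tamoxifen 1 a weight of 0.0377, against 0.956 to 3.37 for the others. With all 6 libraries Ifitm2 was at -0.49 by DESeq2 and -0.46 by edgeR, against -2.28 by limma. With each library left out in turn, Ifitm2 ranged from -3.51 to 0.11 and Bst2 from 0.34 to 1.05. No fold is reported for Ifitm1, Ifitm3 and Ifitm6, which were at the floor.

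Genes higher at an adjusted p under 0.05 numbered 0 by limma, 69 by DESeq2, 2 with the GC correction, 470 with library weights, 175 by DESeq2 and 43 by edgeR with tamoxifen 1 left out, and 0 to 38 with each library left out (38 without tamoxifen 1). Genes lower numbered 0 by limma, 2 by DESeq2, 312 with weights, 56 by DESeq2 and 3 by edgeR with tamoxifen 1 left out, and 0 to 3 with each library left out (3 without tamoxifen 1). At an unadjusted p under 0.05, the 397 higher became 728 by DESeq2, 796 with no filter, 1352 with weights, 758 by DESeq2 and 910 by edgeR with tamoxifen 1 left out, and 197 (without oil 2) to 743 (without tamoxifen 1) with each library left out. The 153 lower became 315 with no filter, 345 with the GC correction, 1520 with weights, 511 by DESeq2 and 616 by edgeR with tamoxifen 1 left out, and 28 (without oil 2) to 745 (without tamoxifen 1) with each library left out. The cause of these shifts was not tested.

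Replicate numbers gave no pairing of the libraries (correlations of same-numbered libraries -0.024, 0.061 and -0.15). With the replicate number as a block, Bst2 was at 0.77 and Ifitm2 at -2.28 (adjusted p = 0.731 for both, limma), the genes lower at an unadjusted p under 0.05 numbered 94, or 230 with the GC correction as well, and no call of a member changed.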
